A study of Mus musculus with 8 samples.

Results

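The transcripts of YAP, of its DNA-binding partner and of genes they are known to drive, together with the CCN family, are described here across 4 culture conditions of a mouse fibroblastic reticular cell (FRC) line, in all 10 named genes of 55367 counted. They are Yap1 and Tead1, which encode the coactivator and its partner, 5 genes known as their targets (Ccn1, Ccn2, Ankrd1, Amotl2 and Ajuba), and Ccn3, Ccn4 and Ccn5, the other CCN family genes listed. The rule names the genes and sets no threshold on their values, and all 10 passed the filter on low counts that left 12137 genes for testing. FRCs are the stromal cells that build the conduit network of lymph nodes. The line came from lymph nodes of p53ER/ER C57BL/6 mice and is 1 line, so no difference between animals is sampled.

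For 4 days the cells were held in RPMI that B16.F10 melanoma cells had conditioned (TCM), that FRCs themselves had conditioned (CCM), to which 15 mmol/L lactic acid was added (LA), or to which as much water was added (vehicle), always with 2% FBS. Each condition had 2 libraries, called biological replicates by the study, with 8232889 to 14107964 counted reads per library. CCM was the control for TCM and vehicle the control for LA, so both tested treatments have a control of their own. With 2 libraries against 2, an exact permutation test of a single gene cannot go below a 2-sided p of 0.333, so tests here come from a model fitted across all genes. In this text a gene is called when its adjusted p in edgeR's quasi-likelihood test is under 0.05 and its log2 fold change (log2 FC) lies beyond 0.39.

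YAP and its paralog TAZ are the coactivators held in check by the Hippo pathway, a kinase cascade in which MST kinases act on LATS kinases and these phosphorylate YAP, which then stays in the cytoplasm. When the cascade is low, or when cells spread on a stiff matrix and carry tension in their actin fibres, YAP enters the nucleus and works through TEAD proteins, which bind the sequence GGAATG. The CCN proteins are secreted matricellular proteins that bind integrins, heparan sulfate and growth factors. CCN1 and CCN2 are textbook YAP targets, and CCN2 drives matrix production in fibroblasts. In lymph node stroma the actomyosin tone of FRCs is known to set tissue tension. YAP is governed largely by where the protein sits in the cell and by its phosphorylation, neither of which was measured here.

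To show what these genes have upstream of them, the letters of the TEAD site were looked for in the 250 bases before the RefSeq start site (GRCm38.p6). A promoter sequence was at hand for 5 of the 10 genes, Ccn1, Yap1, Amotl2, Ajuba and Ankrd1. GGAATG, searched on both strands and so also as CATTCC, was present in 5 of these 5, against 12.6% of 32841 promoters of the same length. More than a single copy was present in 2 of them, Ajuba and Ankrd1, against 1.02% of all promoters. Targets of YAP are in part recognised by such sites, so this is a property of the genes named and says nothing of binding in these cells. Each site is printed with 12 bases on either side, read 5′ to 3′ on the strand of the gene, with the TEAD letters in capitals.
Ccn1, chr3:145650071-145650100, minus strand, 103 bases before the start: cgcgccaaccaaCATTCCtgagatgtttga
Yap1, chr9:8004720-8004749, minus strand, 141 bases before the start: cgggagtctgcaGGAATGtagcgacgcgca
Amotl2, chr9:102717727-102717756, plus strand, 65 bases before the start: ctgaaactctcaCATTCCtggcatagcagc
Ajuba, chr14:54577830-54577859, minus strand, 186 bases before the start: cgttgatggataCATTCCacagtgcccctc
Ajuba, chr14:54577808-54577837, minus strand, 164 bases before the start: tgcccctccgcgCATTCCaactgtaaacaa
Ankrd1, chr19:36120037-36120066, minus strand, 210 bases before the start: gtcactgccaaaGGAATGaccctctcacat
Ankrd1, chr19:36119950-36119979, minus strand, 123 bases before the start: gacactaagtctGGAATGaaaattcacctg

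The windows of Amotl2 and Ankrd1 cross annotated exons of the same genes in GENCODE M21, and the Yap1 window crosses an exon of Gm45494. Whether the sites themselves lie in these exons was not looked at. The windows of Ccn1 and Ajuba hold no annotated exon. The AP-1 letters TGACTCA and TGAGTCA were found in 0 of the 5 windows (4.46% of all promoters), and the CArG box, the site of the actin-regulated factor SRF, in 0 of 5 (1.47% of all). For Ccn1, a textbook YAP target, the whole stretch before the start (chr3:145649986-145650235, minus strand) is given, with the same site in capitals.
Ccn1 upstream: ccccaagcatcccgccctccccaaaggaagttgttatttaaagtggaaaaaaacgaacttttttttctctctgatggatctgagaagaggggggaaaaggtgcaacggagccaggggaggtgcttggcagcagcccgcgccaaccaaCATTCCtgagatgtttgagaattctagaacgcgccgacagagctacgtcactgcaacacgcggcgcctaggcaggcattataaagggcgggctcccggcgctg

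The count table covers each gene as a whole, at these places on GRCm38 (GENCODE M21). Ccn1 (chromosome 3, 145646976 to 145649981) and Ankrd1 (chromosome 19, 36111961 to 36120099) are compact genes on the minus strand. Ccn2 lies on chromosome 10 from 24595442 to 24598683 and shares exon sequence with Gm15270 on the opposite strand, which drew 57 counts over the 8 libraries. Ccn3 and Ccn4 both lie on chromosome 15, at 54745702 to 54754039 and at 66891320 to 66923201. Ccn5 lies on chromosome 2 (163820861 to 163833146), Amotl2 on chromosome 9 (102716672 to 102733418) and Ajuba on chromosome 14 (54567472 to 54577558). Tead1 spans chromosome 7 from 112679318 to 112906807 and is crossed by 2310014F06Rik on the other strand, with 37 counts in all. Yap1 (chromosome 9, 7931999 to 8004596) shares exon sequence with Gm20416, which drew 0 counts.

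TMM scaling factors lay between 0.938 and 1.04. The TCM libraries differed most from each other, with a chi-square of 20.6 per degree of freedom over genes, against 3.31 to 7.45 in the other conditions. The FRC markers Pdpn, Vcam1, Pdgfra, Pdgfrb, Ltbr, Col1a1 and Il7 were above the floor of 3 counts in every library, whereas Ccl21a was at 0 in all, Ccl19 had 1 count in all and Thy1 1 to 16 counts per library. The 4 leukocyte markers were at 0, and 4 endothelial markers summed to between 0.758 and 1.24 counts per 1000000 (CPM). Summed melanoma markers reached 1.64 to 1.89 CPM with TCM and 0.955 to 1.77 CPM in the other conditions, with Tyr at 0 throughout. Of the epithelial markers, Cdh1 ran from 4.44 ± 0.124 CPM with vehicle to 0.752 ± 0.170 with TCM (SD, n = 2), and its part in the results was not tested. Since bulk RNA was measured, fewer cells with a transcript and less of it per cell cannot be told apart.

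Levels per length of exon put the 10 genes far apart. Expressed as RPKM, CPM per kilobase of exon, Ccn3 had a mean level of 1674 over the 8 libraries and ranked 7 of 11970 tested genes with a length. It alone took 0.433% to 0.529% of all counts of a library, of the 0.665% to 0.770% that the 10 genes took together. Ccn3 (also Nov) is a CCN protein often described as opposing CCN2 in matrix production. Below it came Ankrd1 with a level of 215 RPKM, Ccn2 with 127, Ccn5 with 94.6, Amotl2 with 66.9, Ccn1 with 59.7, Ccn4 with 38.3 and Ajuba with 32.4. The factors themselves were lowest by this measure, at 17.5 RPKM for Tead1 and 15.3 for Yap1. Their exon lengths, all annotated exons together, were the longest of the 10, at 13570 and 9257 bases. By group means of CPM Ajuba was lower, at 98.0 to 128, against 210 to 277 for Tead1 and 131 to 154 for Yap1. Every gene of the group was thus plainly expressed, with no library at or near the floor.

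**Figure D1:**
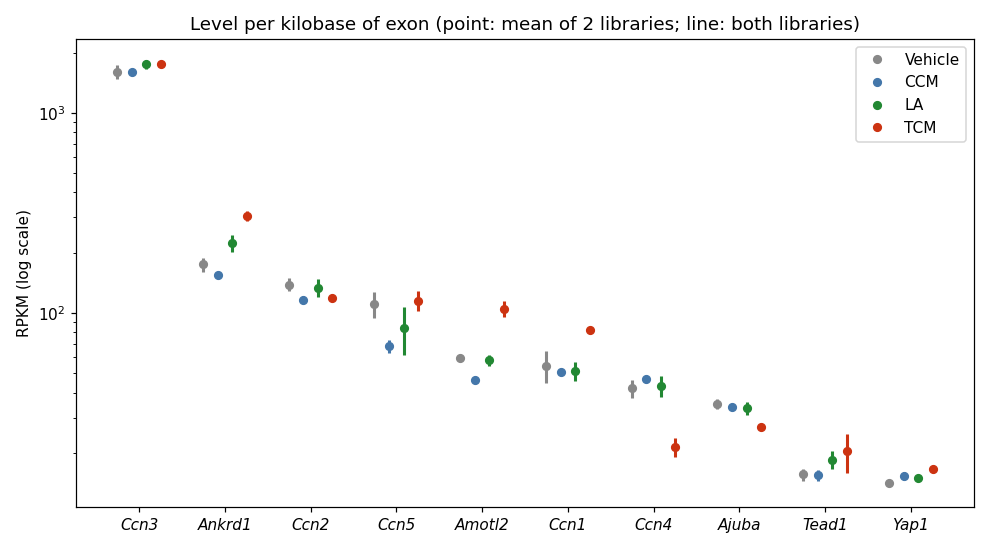
Level of each of the 10 genes in RPKM (y axis, log scale) by gene, from the highest mean to the lowest, with 1 colour per condition. Points are means of 2 libraries and vertical lines join both libraries. Ccn3 lies far above the others, Yap1 and Tead1 lie lowest, and the TCM point stands apart for Ccn4, Amotl2, Ankrd1 and Ccn1.

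Against CCM, medium from melanoma cells raised some YAP targets and CCN genes and lowered another, while the factors Yap1 and Tead1 were not called. With TCM, 5 of the 10 genes were called, against 19.1% of all 12137 genes in that comparison, 4 of them higher (Amotl2, Ankrd1, Ccn5 and Ccn1) and 1 lower (Ccn4). Ccn2, Ccn3 and Ajuba were not called either. The median log2 FC of the 10 genes was 0.27, where that of all tested genes was 0.00. With LA, 0 of the 10 genes were called against vehicle, where 2.55% of all genes were called. At an unadjusted p under 0.05 in edgeR, Ankrd1 was the only gene of the 10 in that comparison, and DESeq2 called 0 of them too. The share of all genes at that unadjusted p was not counted.

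**Figure D2:**
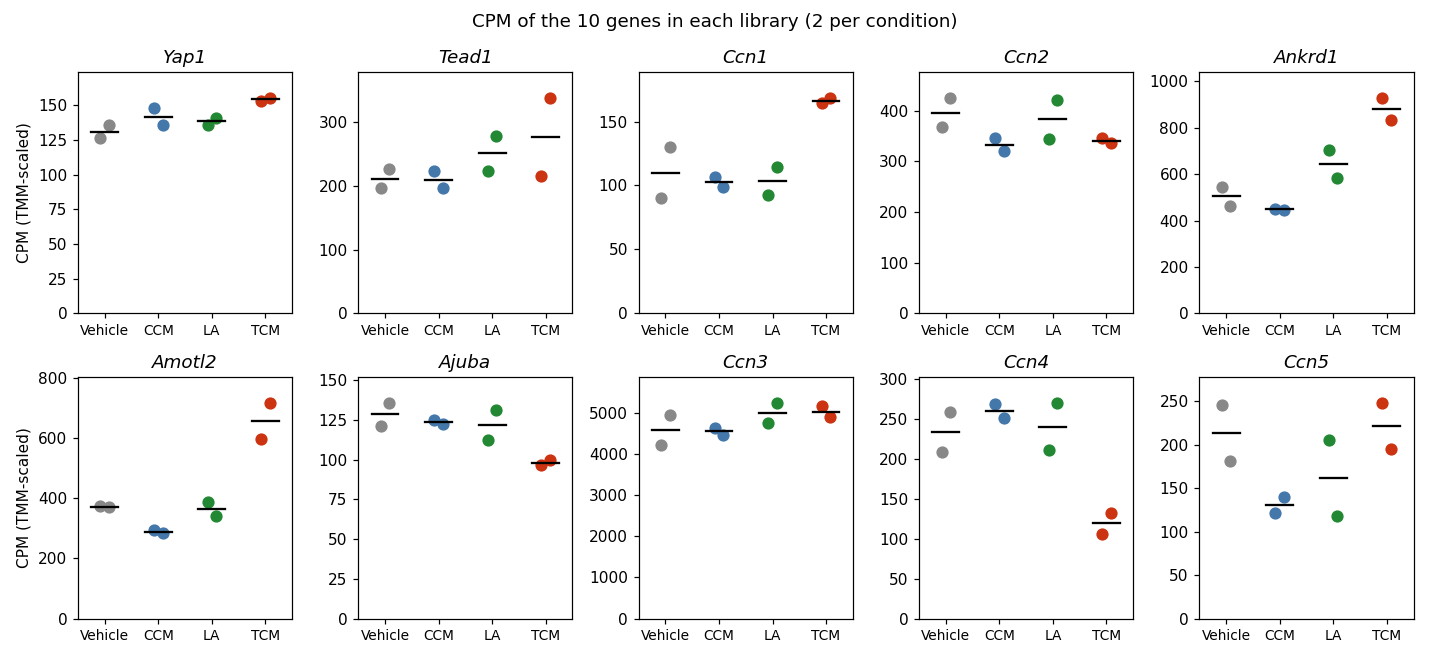
CPM (TMM-scaled, y axis from 0, each panel with its own scale) of the 10 genes in the 8 libraries, by condition. Points are libraries and bars are means of 2. With TCM both libraries of Ccn1, Ankrd1 and Amotl2 stand above all 6 other libraries, and both of Ccn4 and Ajuba stand below them.

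Yap1, which encodes the coactivator, varied little. Its level was 126 and 136 CPM in the vehicle libraries, 136 and 141 with LA, 148 and 136 with CCM, and 153 and 155 with TCM. Both TCM libraries were the highest of the 8, although the step was small. The log2 FC of TCM against CCM was 0.12 ± 0.0908 (SE, adjusted p = 0.378, edgeR), with a 95% interval from -0.06 to 0.30, and that of LA against vehicle was 0.08 (adjusted p = 0.798).

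Tead1, whose protein binds the DNA for YAP, had 197 and 226 CPM with vehicle, 224 and 278 with LA, 223 and 197 with CCM, and 215 and 338 with TCM. A single library, TCM replicate 2, stood high, and the other TCM library lay among the controls. The log2 FC of TCM against CCM was 0.40 ± 0.185 (SE, adjusted p = 0.150), which was not called. Without TCM replicate 1 it was 0.69, and without TCM replicate 2 it was 0.040, in fits that leave 1 TCM library each. With no filter on low counts it was 0.41 and called (adjusted p = 0.0042, edgeR). The value thus rests on the TCM libraries, and the call on the filter used.

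The paralogs of both factors were not called either. Wwtr1, which encodes TAZ, had 240 and 251 CPM with CCM and 209 and 233 with TCM, a log2 FC of -0.15 (adjusted p = 0.342, edgeR). Tead2 had a log2 FC of -0.13, Tead3 of 0.04 and Tead4 of 0.22 in the same comparison, with adjusted p from 0.376 to 0.860. Under LA the log2 FC of these 4 genes lay between -0.03 and 0.06.

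Amotl2 rose most of the 10 genes. It encodes an angiomotin-like junction protein that binds YAP and holds it out of the nucleus, and it is itself a YAP target. Vehicle libraries held 375 and 370 CPM, CCM libraries 294 and 285, LA libraries 388 and 341, and TCM libraries 598 and 717. Both TCM libraries lay far above every other library, and both CCM libraries were the lowest of the 8. TCM exceeded CCM 2.27-fold, a log2 FC of 1.18 ± 0.114 (SE, adjusted p = 5.5e-05). It exceeded vehicle by a log2 FC of 0.82 ± 0.113 (adjusted p = 0.000641). With LA the log2 FC was -0.03, with a 95% interval from -0.25 to 0.19.

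Ankrd1 rose almost as far. It encodes a cardiac ankyrin repeat protein of the sarcomere and nucleus, is induced by stretch and is a common YAP target. Its level was 543 and 464 CPM with vehicle, 706 and 583 with LA, 451 and 445 with CCM, and 930 and 833 with TCM. The groups stood in the order CCM, vehicle, LA and TCM without overlap between any neighbours, although CCM and vehicle were not told apart by the test (adjusted p = 0.654). TCM exceeded CCM 1.97-fold, a log2 FC of 0.98 ± 0.125 (SE, adjusted p = 0.000295). Of the 10 genes, Ankrd1 had the highest value under LA, a log2 FC of 0.36 ± 0.124 (SE) with a 95% interval from 0.11 to 0.60, but it was not called (adjusted p = 0.197).

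Ccn1 (Cyr61) rose less. It encodes a matricellular protein made within a short time of growth factor or mechanical stimulation. The libraries held 90.0 and 130 CPM with vehicle, 92.4 and 115 with LA, 106 and 98.4 with CCM, and 164 and 169 with TCM. Both TCM libraries were above the other 6, and the vehicle libraries were the farthest apart. TCM exceeded CCM 1.63-fold, a log2 FC of 0.70 ± 0.157 (SE, adjusted p = 0.00910). This call did not last without CCM replicate 2, TCM replicate 1 or TCM replicate 2, where the adjusted p was between 0.0740 and 0.0755 at a log2 FC of 0.65 to 0.72.

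Ccn2 (Ctgf), the other textbook target and a driver of fibrosis, was called in no comparison. It had 367 and 426 CPM with vehicle, 345 and 421 with LA, 346 and 320 with CCM, and 346 and 337 with TCM. Values with TCM lay within the range of the CCM libraries, and the upper libraries of vehicle and LA stood above all others. The log2 FC of TCM against CCM was 0.03 ± 0.119 (SE, adjusted p = 0.874), with a 95% interval from -0.20 to 0.27. The interval for LA against vehicle was -0.28 to 0.18. Ccn1 and Ccn2 thus had intervals for TCM against CCM that did not overlap, the one for Ccn1 being 0.39 to 1.01, although the difference between the genes was not itself tested.

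Ajuba encodes a LIM protein that binds LATS kinases and dampens the Hippo cascade. It had 121 and 136 CPM with vehicle, 112 and 131 with LA, 125 and 122 with CCM, and 96.5 and 99.5 with TCM. Both TCM libraries were the lowest of the 8. Against CCM the log2 FC was -0.34 ± 0.104 (SE, adjusted p = 0.0412), which passes the p but not the fold threshold, and against vehicle it fell by 0.39 ± 0.105 (adjusted p = 0.0232), just past both. The call against vehicle was lost when only these libraries were fitted (adjusted p = 0.0722) and without Vehicle replicate 1, Vehicle replicate 2 or TCM replicate 1.

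Among the other CCN genes, Ccn4 (Wisp1), known as a target of WNT signalling, fell. It had 209 and 258 CPM with vehicle, 211 and 270 with LA, 268 and 251 with CCM, and 106 and 132 with TCM. The TCM libraries were clear of all others, and the other 3 conditions overlapped. CCM exceeded TCM 2.18-fold, a log2 FC of -1.13 ± 0.151 for TCM against CCM (SE, adjusted p = 0.000412). Against vehicle the log2 FC of TCM was -0.97 ± 0.151 (adjusted p = 0.00128).

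Ccn5 (Wisp2) lacks the C-terminal domain of its relatives and is often described as antifibrotic. The values were 246 and 182 CPM with vehicle, 206 and 118 with LA, 121 and 140 with CCM, and 248 and 196 with TCM. TCM lay above CCM, but the vehicle libraries covered much of the same range as TCM, and the LA libraries were far apart. TCM exceeded CCM 1.70-fold, a log2 FC of 0.76 ± 0.230 (SE, adjusted p = 0.0365), while TCM against vehicle gave 0.06 (adjusted p = 0.893) and CCM against vehicle gave -0.71 ± 0.229 (adjusted p = 0.180). The call against CCM was lost in DESeq2 (adjusted p = 0.108), without TMM scaling (adjusted p = 0.0725), and without any of the 4 libraries compared (adjusted p from 0.0901 to 0.426), so it depends on the control and the libraries used.

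Ccn3, the most abundant, was called in no comparison. It had 4241 and 4961 CPM with vehicle, 4766 and 5254 with LA, 4653 and 4469 with CCM, and 5170 and 4907 with TCM. LA and TCM libraries lay above the CCM libraries and overlapped the upper vehicle library. The log2 FC was 0.14 with TCM against CCM (95% interval -0.09 to 0.37, adjusted p = 0.427) and 0.12 with LA against vehicle (-0.11 to 0.35, adjusted p = 0.735).

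**Figure D3:**
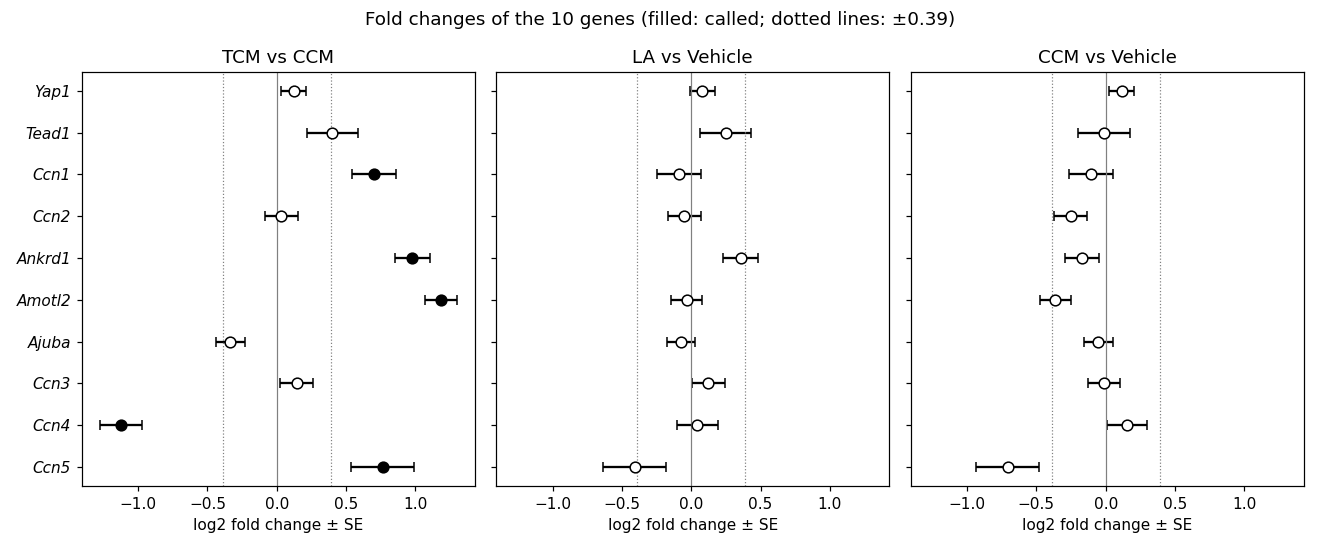
Log2 FC with its SE (x axis) of the 10 genes (y axis) for TCM against CCM, LA against vehicle and CCM against vehicle. Filled points are called and dotted lines mark 0.39 in both directions; 5 genes are filled for TCM, 0 for LA and 0 for the controls, where Ccn5 at -0.71 lies farthest from 0.

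Whether TCM and LA differ in their effect was tested directly, as TCM against CCM minus LA against vehicle. Of the 10 genes 5 were called, against 10.4% of all genes, and they were the 5 called for TCM, whose libraries this test shares. The difference was 1.22 ± 0.160 on the log2 scale for Amotl2 (SE, adjusted p = 0.000652) and -1.17 ± 0.210 for Ccn4 (adjusted p = 0.00477). Both were called under every alternative tried that kept the threshold of 0.39. For Ccn5 the difference was 1.17 ± 0.324 (adjusted p = 0.0424), for Ccn1 0.79 ± 0.222 (adjusted p = 0.0461) and for Ankrd1 0.62 ± 0.175 (adjusted p = 0.0455). These 3 lay close to the threshold, and each lost its call without TMM scaling and without either CCM library, among others. For Ccn2, Ccn3, Ajuba, Tead1 and Yap1 no difference was detected, with adjusted p of 0.307 or more.

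The 2 controls were also set against each other. CCM against vehicle gave 0 calls among the 10 genes and 1.30% among all genes. At an unadjusted p under 0.05 in edgeR there were 2 of the 10, and the share of all genes at that p was not counted. They were Ccn5 as above and Amotl2 with a log2 FC of -0.36 ± 0.113 (SE, adjusted p = 0.163), neither of them called. DESeq2 called 0 of the 10. Ccn2 was at -0.25 (adjusted p = 0.414). The means of these genes were lower with CCM than with vehicle, so their values for TCM depend on the control, and the comparisons with vehicle are given here for that reason. They share the TCM or LA libraries with those above and are no separate evidence.

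Against vehicle, TCM gave 5 calls among the 10 genes, where 17.5% of all genes were called. Amotl2, Ankrd1 (log2 FC 0.81 ± 0.124, SE, adjusted p = 0.00121) and Ccn1 (0.59 ± 0.157, adjusted p = 0.0220) were higher, and Ccn4 and Ajuba were lower. Ccn1 lost this call without Vehicle replicate 1, TCM replicate 1 or TCM replicate 2. Ccn2 had a log2 FC of -0.22 (adjusted p = 0.236) and Yap1 of 0.24 (adjusted p = 0.0970). LA against CCM gave 0 calls among the 10 genes in edgeR, where 0.626% of all genes were called. At an unadjusted p under 0.05 there were 2 of the 10, with the share of all genes at that p not counted. Ankrd1 came nearest, with a log2 FC of 0.52 ± 0.124 (SE, adjusted p = 0.102). It was called by DESeq2 (adjusted p = 0.00683), in the fit of these libraries alone (adjusted p = 0.00681), with no filter on low counts (adjusted p = 0.000149), and without TCM replicate 1 (adjusted p = 0.0152) or TCM replicate 2 (adjusted p = 0.0148).

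The scaling of the libraries matters for how many genes of all count as higher. With TMM factors 46.3% of the genes called in TCM against CCM were higher, and without them 24.2%, since the median of all tested genes then moved by -0.14 on the log2 scale. Amotl2, Ankrd1 and Ccn1 were called higher and Ccn4 lower under either scaling. Ajuba was called lower without TMM factors (log2 FC -0.48, adjusted p = 0.00547), which is a log2 FC of -0.34 under TMM, and Ccn2 and Yap1 turned from slightly above to slightly below 0.

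The wider pathway was read from 3 lists of named genes. Of 32 components of the Hippo cascade 31 could be tested, Dchs1 having 27 counts in all. In TCM against CCM 8 of the 31 were called, 5 higher and 3 lower, beside 19.1% of all genes, with a median log2 FC of 0.09 over the 31. Vgll3, a TEAD cofactor, rose from a level of 109 ± 2.09 CPM in the CCM libraries to 198 ± 21.0 in the TCM libraries (SD, n = 2), a log2 FC of 0.87 (adjusted p = 0.000137, edgeR). Wtip, a LIM protein related to Ajuba, rose by a log2 FC of 0.58 (adjusted p = 0.00360), and Lats2, the kinase that phosphorylates YAP and is itself a YAP target, by 0.55 (adjusted p = 0.00859), from 36.6 to 53.8 CPM. Lower were Vgll4, a TEAD cofactor that counters YAP, with a log2 FC of -0.53 (adjusted p = 0.00750), and Rassf1, an upstream scaffold, with -0.51 (adjusted p = 0.0120). Taok2, a kinase upstream of the cascade, was lower too, with -0.42 (adjusted p = 0.0172). With TCM against vehicle, Rassf1 (log2 FC -0.35, adjusted p = 0.0681, edgeR) and Taok2 (-0.27, adjusted p = 0.108) were not called. Vgll3, Wtip, Lats2 and Vgll4 were called there, in the same directions.

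With LA 1 of the 31 components was called against vehicle, beside 2.55% of all genes, and it was lower. Limd1, another LIM protein of the Ajuba family, had 95.4 ± 1.54 CPM with vehicle and 68.5 ± 3.46 with LA (SD, n = 2). Its log2 FC was -0.48 ± 0.0925 (SE, adjusted p = 0.0243, edgeR). With CCM Limd1 had a mean of 73.6 CPM. LA against CCM gave it a log2 FC of -0.10 (adjusted p = 0.772), so the call depended on the control. In the test of the difference between TCM and LA 4 of the 31 components were called, all 4 higher with TCM, beside 10.4% of all genes.

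Further genes described as YAP/TEAD targets were called in both directions. Of 16 listed, 15 could be tested, as Nt5e had 41 counts in all. TCM against CCM gave 4 calls among the 15, 3 higher and 1 lower, beside 19.1% of all genes, and their median log2 FC was -0.09. F3, tissue factor, which starts coagulation, rose from 44.6 ± 0.527 CPM to 174 ± 6.83 (SD, n = 2), a log2 FC of 1.96 ± 0.109 (SE, adjusted p = 6.63e-06). Crim1, a membrane protein that binds bone morphogenetic proteins, rose from 425 ± 4.83 to 1115 ± 185 CPM (SD, n = 2), a log2 FC of 1.39 (adjusted p = 3.28e-05). Asap1, a regulator of ARF GTPases, rose by 0.40 (adjusted p = 0.0324), and Ccdc80, a matrix protein, fell by 0.47 (adjusted p = 0.00536). Against vehicle, TCM gave Asap1 a log2 FC of 0.04 (adjusted p = 0.853, edgeR), so its call depended on the control. F3, Crim1 and Ccdc80 were called against vehicle too, in the same directions.

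With LA, 3 of the 15 targets were called against vehicle, 1 higher and 2 lower, beside 2.55% of all genes, with a median log2 FC of -0.13. F3 rose from 50.0 ± 6.65 to 84.8 ± 2.82 CPM (SD, n = 2), a log2 FC of 0.76 ± 0.108 (SE, adjusted p = 0.00549). Its log2 FC with TCM exceeded that with LA by 1.20 in the test of the difference. Igfbp3, which binds insulin-like growth factors, fell by 1.46 ± 0.143 on the log2 scale (SE, adjusted p = 0.000532), from 53.1 to 19.6 CPM. Ccdc80 fell by 0.63 (adjusted p = 0.00787), from 811 to 524 CPM. LA against CCM called 2 of the 15, F3 higher and Igfbp3 lower, beside 0.626% of all genes. Ccdc80 was not called there (log2 FC -0.33, adjusted p = 0.212, edgeR).

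The third list held SRF and its coactivators Mrtfa and Mrtfb themselves along with 13 genes of the actin cytoskeleton known as their targets, several of which are shared with YAP. All 16 were tested, and TCM against CCM gave 5 calls, 4 higher and 1 lower, beside 19.1% of all genes, with a median log2 FC of 0.23. Zyx, zyxin, a focal adhesion LIM protein, rose from 884 ± 28.7 to 2382 ± 197 CPM (SD, n = 2), a log2 FC of 1.43 ± 0.125 (SE, adjusted p = 3.49e-05). Fhl2, a LIM cofactor, rose by 0.54 (adjusted p = 0.00398) and Cnn2, a calponin, by 0.42 (adjusted p = 0.0236). Actg2, smooth muscle gamma actin, fell by 1.68 (adjusted p = 0.00384), from 11.5 to 3.57 CPM. With TCM against vehicle, Cnn2 had a log2 FC of 0.34 and was not called (adjusted p = 0.0604, edgeR). Zyx, Fhl2 and Actg2 were called there, in the same directions. LA against vehicle gave 0 calls among the 16 in edgeR and in DESeq2, and 0 at an unadjusted p under 0.05, with log2 FC from -0.22 to 0.31, against 2.55% of all genes.

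**Figure D4:**
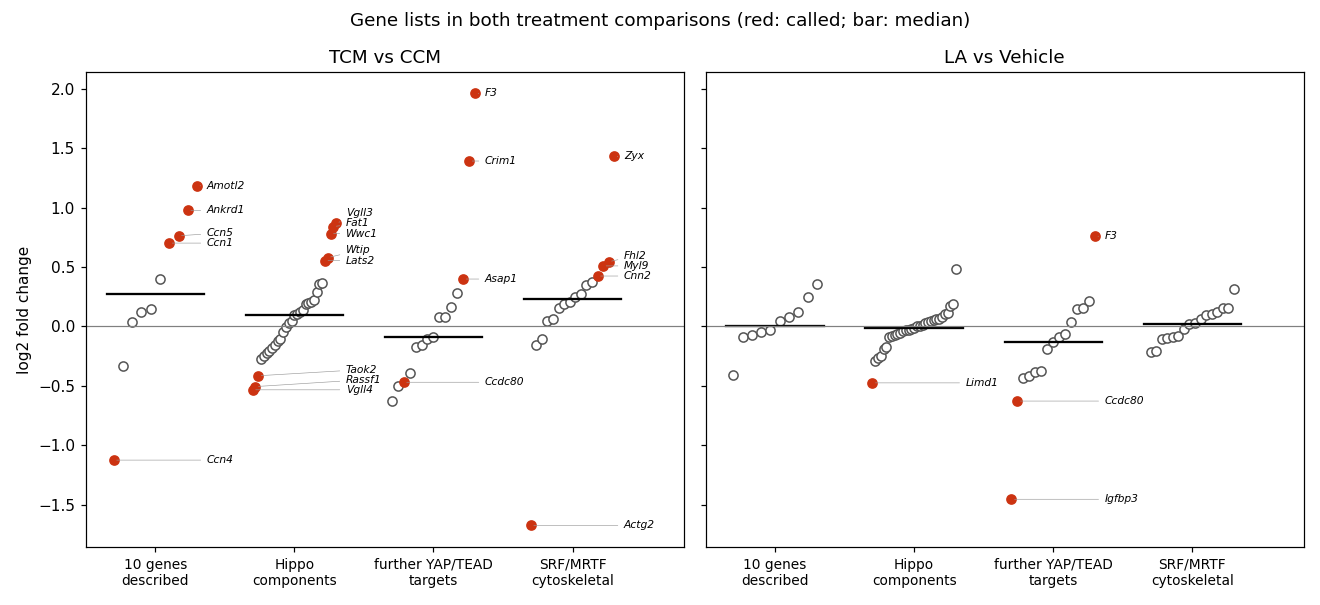
Log2 FC (y axis) of the 10 genes and of the 3 lists (x axis, genes sorted by value within a list) for TCM against CCM and LA against vehicle. Red points are called genes, with their names, open points are not called, and bars are medians. Called genes of each set lie on both sides of 0 with TCM, and with LA they are F3, Limd1, Ccdc80 and Igfbp3.

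Genes with the most similar profile were sought for Ccn1, Ccn2 and Ankrd1, as the smallest root mean square difference of log2 CPM over the 8 libraries after each gene was centred on its own mean. For Ccn1 these were Adarb1 (0.0993), Sgpl1 (0.106) and Sulf1 (0.107), where the median gene differed by 0.369. For Ankrd1 they were Fam149a (0.0879), Hccs (0.0978) and Cdk18 (0.101), with a median of 0.420. For Ccn2 they were Zbtb44 (0.0523), Trim23 (0.0545) and Urgcp (0.0637), with a median of 0.233. Among the 10 genes, Amotl2 was nearest to both Ccn1 (0.259, rank 1280 of all genes) and Ankrd1 (0.202, rank 144), and Ccn3 was nearest to Ccn2 (0.133, rank 707). These distances rest on 8 libraries of 4 conditions and carry no test.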

How the data were processed

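Poly(A) RNA of the FRC line was sequenced in 8 libraries, 2 per condition, assigned to conditions by their labels. The authors aligned the reads with STAR 2.7.0a to GRCm38 (Ensembl 100), counted them per gene with featureCounts (Subread 2.0.1), and deposited whole-number counts without normalization. Whether counting used strand is not given in the sources used here. A second deposited table, of 12137 genes, was identical to the raw counts in 100% of values. No column was left unused (0).

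The filter kept 12137 of 55367 genes, those reaching 10 counts or more in 3 libraries or more. Counts were scaled by TMM and fitted with edgeR 4.0.16 in R 4.3.3 (glmQLFit, glmQLFTest, robust), all 8 libraries in 1 model, and p values were adjusted by Benjamini-Hochberg over all tested genes. The filter and the fold threshold of 0.39 follow the study's methods. P values set the difference between groups against a spread estimated from these libraries of 1 cell line, in part shared across genes. SE is the absolute log2 FC divided by the square root of F. Intervals given as 95% are 1.96 SE either side, a normal multiplier that is too narrow for this few libraries. For Tead1 in TCM against CCM the interval ran from 0.04 to 0.76 while the unadjusted p was 0.0526 (edgeR). RPKM uses exon lengths of GENCODE M21. A floor of 3 counts equals 0.211 to 0.354 CPM in these libraries and covers counting error only.

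Genes named are the 10 described and, from 3 lists, up to 3 called genes per direction with the smallest adjusted p in TCM against CCM and in LA against vehicle, besides Wwtr1 and Tead2 to Tead4. A further gene of these lists is not reported here. The genes and lists were chosen with earlier results of these data known. Alternatives were other scalings and filters, DESeq2 1.42.0, only the libraries compared, a replicate block, other fold thresholds and each library left out.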

Additional observations from a re-analysis of the deposited data

Results flagged for a closer look

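The effect of TCM against CCM minus that of LA against vehicle was called for 5 of the 10 genes (edgeR, groups of 2 libraries). Of all genes 10.4% were called. On the log2 scale the difference was 1.22 for Amotl2, 1.17 for Ccn5, 0.79 for Ccn1, 0.62 for Ankrd1 and -1.17 for Ccn4. Those of Ccn5, Ccn1 and Ankrd1 lay close to the p threshold and lost their call without TMM factors. For Ccn5, TCM against vehicle gave a log2 FC of 0.06, so its difference depends on the control. With 2 libraries per condition no library could be tested as standing apart from its group.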

How the results depend on the processing

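The number of called genes among the 10 stayed within 1.5 times under 16 of 19 alternatives for TCM against CCM, 15 of 18 for TCM against vehicle, 13 of 18 for LA against CCM and 8 of 17 for the difference between TCM and LA effects, and was 0 throughout for LA against vehicle and for CCM against vehicle. With a log2 FC beyond 1 the calls were 2 for TCM against CCM, 3 for the difference between effects, and 0 for TCM against vehicle, where a log2 FC beyond 0.68 left 3. Without TMM factors the difference between effects gave 2 calls. LA against CCM gave 1 call with no filter on low counts, in DESeq2 and with only the libraries compared. Leaving out each library in turn moved the counts for TCM against CCM, TCM against vehicle, LA against CCM and the difference between effects. The share of all genes called moved as well, and not always in the same direction, so these counts are not compared. Of 890 alternative values of single genes, 798 kept direction and call, 39 lost the call, 9 gained it and 44 changed sign, all 44 of values that had not been called. Where 1 library was left, it was assumed to vary like the other groups, although the TCM libraries differed most from each other. The causes of these shifts were not tested.

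The sign changed without TMM factors for Ccn2 (-0.11) and Yap1 (-0.018) in TCM against CCM, for Ccn2 (-0.061), Ccn3 (-0.12) and Yap1 (-0.10) in the difference between effects, for Ccn3 (0.018) and Tead1 (0.017) in CCM against vehicle, for Ccn5 (-0.056) in TCM against vehicle and for Ccn1 (-0.0055) in LA against CCM. Without a filter on low counts it changed for Ajuba in LA against CCM (0.0076). When each library was left out in turn, log2 FC ran from -0.022 to 0.089 for Ccn2 in TCM against CCM. In LA against vehicle they ran from -0.33 to 0.20 for Ccn1, -0.20 to 0.087 for Ccn2, -0.15 to 0.21 for Ccn4, -0.13 to 0.057 for Amotl2 and -0.20 to 0.033 for Ajuba. In the difference between effects they ran from -0.054 to 0.24 for Ccn2, -0.091 to 0.13 for Ccn3, -0.21 to 0.44 for Tead1 and -0.017 to 0.10 for Yap1. In CCM against vehicle they ran from -0.35 to 0.18 for Ccn1, -0.12 to 0.097 for Ccn3, -0.13 to 0.021 for Ajuba and -0.11 to 0.082 for Tead1, and in TCM against vehicle from -0.15 to 0.29 for Ccn5. In LA against CCM they ran from -0.15 to 0.16 for Ccn1, -0.30 to 0.055 for Ccn4, -0.15 to 0.65 for Ccn5, -0.14 to 0.087 for Ajuba and -0.095 to 0.026 for Yap1.

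Same-numbered libraries did not deviate together in every pair of conditions (r across genes from -0.278 for CCM with TCM to 0.386 for vehicle with LA), so the number was not read as pairing. The replicate block fitted put the same effect on all 4 conditions. Pairing vehicle with LA alone was not fitted, so what LA against vehicle would give under it was not tested. With a replicate block the calls were 5 for TCM against CCM, 0 for LA against vehicle, 5 for the difference between effects, 0 for CCM against vehicle, 4 for TCM against vehicle (Ajuba at -0.388, under the fold threshold) and 0 for LA against CCM, and Tead1 in CCM against vehicle changed sign to 0.0037. A block that swaps the numbers of the CCM libraries, added once the data had been seen, gave 5 calls for TCM against CCM.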

Other observations

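Tyrp1, a pigment cell enzyme, had 6 and 3 counts in the TCM libraries and 0 in the other 6, and Dct, another, had 1 and 1 count in the TCM libraries and 0 in the other 6. Both are among the melanoma markers summed in the report.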
